A study of Homo sapiens with 4 samples.

Results

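The inhibitors of apoptosis and the mitochondrial proteins that antagonise them were followed at the level of their transcripts in MDA-MB-231, a mesenchymal-like human breast cancer line of the triple-negative kind. The genes were chosen by name, with earlier results of these data known. They were the inhibitors XIAP, BIRC2, BIRC3, BIRC5 and BIRC6 and the antagonists DIABLO and HTRA2, 7 of the 20263 genes in the count table. Each symbol matched 1 Ensembl ID, and all 7 passed the filter on low counts. Cells in ordinary serum-containing medium received either Rib_CA, which the series title describes as derived from the CDK4/6 inhibitor ribociclib, or DMSO as the vehicle, and RNA was taken after 24 h. The dose of Rib_CA is not given in the sources used here. There were 2 libraries per group, named here DMSO 1, DMSO 2, Rib_CA 1 and Rib_CA 2.

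Total counts were between 34774542 and 38865103 per library. The line's mesenchymal markers were high, with VIM at 3587 to 4221 CPM (counts per 1000000 of the scaled library) and CD44 at 390 to 578 CPM. ESR1 lay at no more than 0.663 CPM and CDH1 at no more than 0.0766 CPM, while CD3E had no count, PTPRC lay at no more than 0.634 CPM and VWF at no more than 0.288 CPM. Epithelial and luminal markers were not all low: KRT8 lay at 272 to 487 CPM and KRT18 at 180 to 336 CPM, with EPCAM at 9.50 to 12.2 CPM and GATA3 at 3.04 to 21.7 CPM. ERBB2 was detected at 58.0 to 87.1 CPM and the macrophage-associated gene CD68 at 161 to 338 CPM. Mitochondrially encoded transcripts took 8.68% of the counts in DMSO 1, 21.7% in DMSO 2, 5.78% in Rib_CA 1 and 3.13% in Rib_CA 2. DMSO 2 stood apart in this measure, so the members are given library by library and with each library left out. In bulk RNA, fewer cells that express a gene and less RNA per cell cannot be told apart.

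Inhibitors of apoptosis share the BIR domain, a zinc-binding fold. XIAP binds active caspases and blocks them, whereas the cIAP proteins encoded by BIRC2 and BIRC3 act mainly as ubiquitin ligases in TNF receptor complexes and keep the NF-kB-inducing kinase low. Survivin, the product of BIRC5, is the subunit that takes the chromosomal passenger complex to centromeres, and BIRC6 is a very large ubiquitin-conjugating enzyme that marks caspases and the antagonists themselves for destruction. DIABLO (also called SMAC) and HTRA2 (Omi) are held between the mitochondrial membranes, and once released they dock onto BIR domains and free the caspases. HTRA2 is also a serine protease.

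After Rib_CA, BIRC6 fell 4.24-fold, and none of the other 6 genes passed edgeR's quasi-likelihood test at an adjusted p under 0.05. Thus 1 of 7 genes was called, and it was lower. Over all 13667 genes tested the same rule called 7.13%, with 5.11% lower and 2.01% higher. That was 699 lower and 275 higher genes with TMM scaling, against 328 and 260 with scaling by total counts alone. The fitted fold changes were positive for 5 genes and negative for BIRC2 and BIRC6. The 2 groups did not overlap for 6 of the 7 genes, all but BIRC5: Rib_CA lay above DMSO for XIAP, BIRC3, DIABLO and HTRA2, and below it for BIRC2 and BIRC6. Such separation was common in these libraries, at 58.8% of all genes tested (30.4% above and 28.4% below). The median log2 fold change was 0.33 over the 7 genes and 0.03 over all genes tested.

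**Figure D1:**
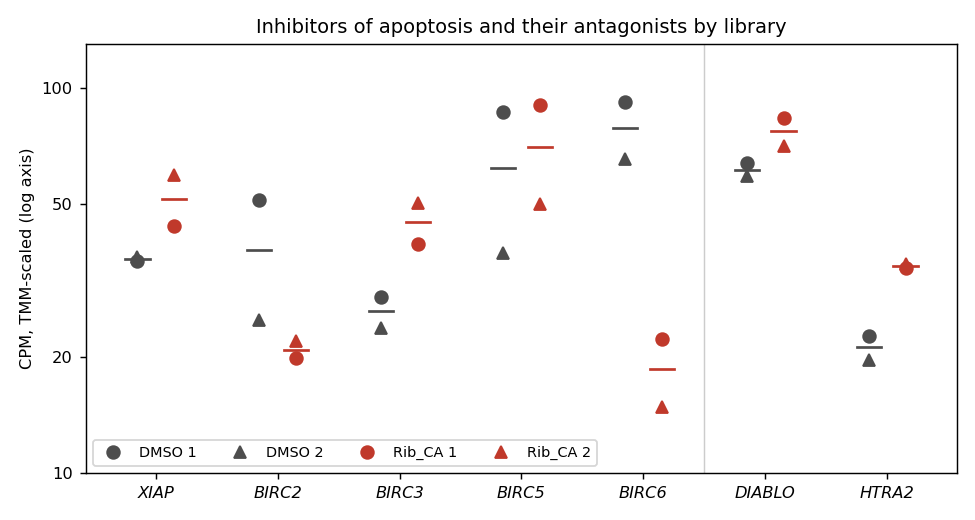
Level of each gene in each library in CPM scaled by TMM on a log axis, with circles for replicate 1, triangles for replicate 2 and a bar at each group mean (grey DMSO, red Rib_CA). BIRC6 shows the widest gap between the groups, while the BIRC5 values of the 2 replicates lie further apart than the groups do.

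XIAP, the direct caspase inhibitor of the family, lay at 35.5 and 36.3 CPM in DMSO 1 and 2 and at 43.7 and 59.5 CPM in Rib_CA 1 and 2. The DMSO libraries were nearly equal, and both Rib_CA libraries were higher but differed from each other. The fitted change was 1.44-fold upward with a 95% interval from 0.901 to 2.29, and it did not pass (adjusted p = 0.273 in edgeR's test). When each library was corrected for the GC content and length of transcripts, the change was 2.59-fold upward, again without passing (adjusted p = 0.0803). XIAP has a GC content of 39.0% and a longest transcript of 8591 bases. BIRC8, a retrogene related to XIAP, had no count in any library, and the pseudogene XIAPP1 shared 1.65% of the 50-base words of the XIAP transcript.

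BIRC2 and BIRC3 are neighbours on chromosome 11, both on the forward strand, with 7807 bases between the end of BIRC3 (GRCh38 chr11:102317450-102339403) and the start of BIRC2 (chr11:102347211-102378670). Their products, cIAP1 and cIAP2, are close paralogs, yet only 0.273% of the 50-base words of the BIRC2 transcript occurred in BIRC3. The 2 transcripts took opposite signs after Rib_CA. BIRC3 lay at 28.7 and 23.8 CPM in DMSO 1 and 2 and at 39.2 and 50.3 CPM in Rib_CA 1 and 2, so that both treated libraries were above both controls. Its fitted change was 1.70-fold upward (95% interval 1.06 to 2.74; unadjusted p = 0.0328, adjusted p = 0.141 in edgeR), which did not pass over all genes. BIRC2 lay at 51.1 CPM in DMSO 1, 24.9 CPM in DMSO 2, 19.8 CPM in Rib_CA 1 and 21.98 CPM in Rib_CA 2. DMSO 1 alone was high, and DMSO 2 was close to the treated libraries. The fitted change of BIRC2 was 1.82-fold downward with a 95% interval that reached from 0.956 to 3.46-fold lower (adjusted p = 0.2025), and without DMSO 1 it was 1.20-fold lower. After the GC and length correction BIRC3 was 2.67-fold higher (adjusted p = 0.0803) and BIRC2 was 1.17-fold lower (adjusted p = 0.701), neither passing.

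Within each library, the ratio of BIRC3 CPM to BIRC2 CPM was 0.562 in DMSO 1 and 0.956 in DMSO 2, and 1.98 in Rib_CA 1 and 2.29 in Rib_CA 2. BIRC2 was therefore the more heavily counted of the pair in both controls and BIRC3 in both treated libraries. The mean log2 ratio was -0.45 in DMSO and 1.09 in Rib_CA, a 2.90-fold difference. The exact permutation test gave a two-sided p of 0.333 for it, the smallest that 2 libraries against 2 allow, and the ratio was formed after the values were seen.

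The stretches just upstream of the start sites of this pair and of BIRC6, the called gene, are shown because they differ in the motifs they hold. They were read from RefSeq's promoter table (GRCh38.p14), forward strand, 5′ to 3′: BIRC3 at chr11:102317234-102317449, BIRC2 at chr11:102346964-102347214 and BIRC6 at chr2:32356773-32357022. The BIRC2 stretch ends on its RefSeq start and that of BIRC6 on the base before it. The BIRC3 stretch ends on the base before its GENCODE start, which lies 34 bases upstream of its RefSeq start. Capitals mark matches to the NF-kB consensus in BIRC3 and BIRC6 and to the cyclic AMP response element TGACGTCA in BIRC2.
BIRC3: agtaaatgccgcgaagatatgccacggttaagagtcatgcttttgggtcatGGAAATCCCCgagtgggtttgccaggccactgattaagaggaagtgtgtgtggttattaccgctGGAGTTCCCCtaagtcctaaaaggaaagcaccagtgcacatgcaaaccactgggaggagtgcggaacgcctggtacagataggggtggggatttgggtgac
BIRC2: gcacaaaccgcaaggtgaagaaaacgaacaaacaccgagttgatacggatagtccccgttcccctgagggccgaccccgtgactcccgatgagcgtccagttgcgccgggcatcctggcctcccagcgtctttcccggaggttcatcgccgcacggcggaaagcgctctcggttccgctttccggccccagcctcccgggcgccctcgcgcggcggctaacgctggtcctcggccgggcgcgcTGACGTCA
BIRC6: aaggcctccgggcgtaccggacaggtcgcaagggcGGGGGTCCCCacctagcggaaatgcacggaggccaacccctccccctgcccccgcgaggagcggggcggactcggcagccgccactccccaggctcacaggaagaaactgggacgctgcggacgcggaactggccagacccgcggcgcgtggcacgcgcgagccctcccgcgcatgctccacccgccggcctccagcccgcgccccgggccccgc

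The search covered both strands of windows that run from 250 bases before to 50 bases after each start. The BIRC3 window held 2 matches to the NF-kB consensus, ending 190 and 126 bases before the RefSeq start, and the BIRC6 window held 1, ending 206 bases before it. Of 35116 promoter windows in the table, 11.3% held at least 1 such match. Any part of these matches in the fold changes of BIRC3, which did not pass, or of BIRC6 was not tested. The response element of BIRC2 ended on the RefSeq start base itself, and 1.85% of all windows held this motif. BIRC5 had no entry in the promoter table, so its promoter was not searched for any motif. None of the 14 windows of the 6 members with an entry held AP-1 (TGANTCA), the cell cycle element CHR (TTTGAA) or a p53 half-site, which occurred in 7.71%, 15.2% and 6.63% of all windows. CCAAT was found in 2 of the 4 DIABLO windows and in 34.6% of all windows. A match describes letters and does not show that a factor was bound.

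BIRC5, which encodes survivin, lay at 86.7 CPM in DMSO 1, 37.3 CPM in DMSO 2, 90.25 CPM in Rib_CA 1 and 50 CPM in Rib_CA 2. The replicates of each group differed more than the groups did, and the groups overlapped. DMSO 2, the lowest library for BIRC5, also had the highest mitochondrial share (21.7%), and the part of that share in the result was not tested. The fitted change was 1.13-fold upward with a 95% interval from 0.520 to 2.46 (adjusted p = 0.844 in edgeR), so a change of 2-fold upward lay inside the interval. Its sign turned when single libraries were left out: the log2 fold change was 0.90 without DMSO 1, -0.31 without DMSO 2, -0.34 without Rib_CA 1 and 0.54 without Rib_CA 2. It was -0.14 after the GC and length correction. The gene lies at GRCh38 chr17:78214186-78225636.

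BIRC6 (GRCh38 chr2:32357028-32618899) had the longest transcript of the group, 15703 bases. It lay at 91.9 CPM in DMSO 1 and 65.4 CPM in DMSO 2, and at 22.3 CPM in Rib_CA 1 and 14.9 CPM in Rib_CA 2. Both treated libraries lay far below both controls, and the raw counts were 3188 and 2155 against 872 and 640. The means were 78.7 ± 18.7 CPM in DMSO and 18.6 ± 5.22 CPM in Rib_CA (SD, n = 2). In edgeR's test the log2 fold change was -2.08 ± 0.34 (SE) with an adjusted p of 0.0292, and the 95% interval of the decrease ran from 2.42-fold to 7.425-fold. Left without DMSO 1, the decrease was 3.54-fold and the call was lost (adjusted p = 0.0738). With any other library left out it was called, at 3.54-fold to 5.42-fold lower.

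Transcript length and GC content ran with the fold change across the whole table, and BIRC6 lies at the long end. Fits corrected for GC content, or for GC content and length, were also run. Each correction was fitted to the libraries themselves, so it also takes out real changes that run along GC content or length. The part of length and GC content in the result was not tested. Among the 289 tested genes whose longest transcript had 12000 bases or more, the median log2 fold change was -0.73 and 20.1% were called lower, against a median of 0.44 and 0.631% lower among 2376 genes under 2000 bases. BIRC6, at -2.08, lay below the median of its length range. After the GC and length correction its decrease was 2.12-fold and did not pass (adjusted p = 0.102), and after a correction for GC content alone it was 3.11-fold (adjusted p = 0.0712). With either correction no gene in the whole table passed, and 3652 (GC) and 3399 (GC and length) had an unadjusted p under 0.05 in edgeR. BIRC3 and XIAP stood on the other side of their ranges: the median was -0.06 among 3367 genes of 4000 to under 6000 bases and -0.48 among 925 genes of 8000 to under 12000 bases, while BIRC3 had 0.77 and XIAP 0.52. By GC content, the 2176 genes under 40% had a median of -0.57, and BIRC2 (38.0%), BIRC3 (34.75%) and XIAP (39.0%) belonged to this range.

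**Figure D2:**
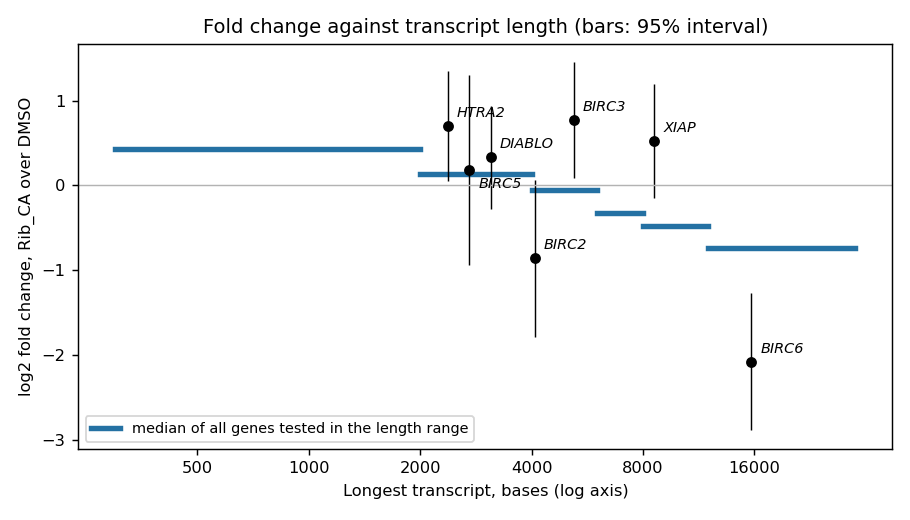
Log2 fold change of each of the 7 genes, with its 95% interval, against the length of its longest transcript on a log axis. Blue bars give the median of all tested genes in each length range and descend from 0.44 to -0.73 as transcripts lengthen, with BIRC6 below and BIRC3 and XIAP above the bar of their range.

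The antagonists carried small positive fold changes that did not pass. DIABLO lay at 63.6 and 58.9 CPM in DMSO 1 and 2 and at 83.5 and 70.6 CPM in Rib_CA 1 and 2. The treated libraries were above the controls by a margin smaller than the gap between the treated libraries themselves. Its fitted change was 1.26-fold upward with a 95% interval from 0.824 to 1.92 (adjusted p = 0.436 in edgeR), so that a doubling lay outside the interval. HTRA2 lay at 22.7 and 19.7 CPM in DMSO and at 34.1 and 34.9 CPM in Rib_CA. These groups were well apart relative to their spread, and the fitted change was 1.63-fold upward (95% interval 1.04 to 2.55; unadjusted p = 0.0370, adjusted p = 0.149), which did not pass over all genes. At 60.5% its transcript had the highest GC content of the 7, and after the GC and length correction the change was 1.13-fold upward (adjusted p = 0.684). Counting at unadjusted p under 0.05, BIRC3, BIRC6 and HTRA2 qualified, 3 of 7 genes, against 28.4% of all genes tested.

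Both antagonist genes overlap others. HTRA2 (GRCh38 chr2:74529377-74533348) shares 20.8% of its exonic bases with LOXL3 and 16.1% with AUP1, each on the opposite strand. Whether the counting used strand is not given in the sources used here, and without it reads on shared bases could belong to either gene. LOXL3 was low, with 32 and 48 counts in DMSO and 152 and 124 in Rib_CA, whereas AUP1 had 3249 and 3266 counts in DMSO and 5528 and 4534 in Rib_CA, more than HTRA2 itself (788 and 648 against 1337 and 1501). DIABLO (GRCh38 chr12:122207663-122226568) shares 14.3% of its exonic bases with B3GNT4 on the opposite strand and 16.8% with the entry AC048338.1 on its own strand. The largest overlap, 29.6%, is with a second GENCODE entry of the same name and strand. That entry has no row in the count table, so the DIABLO values are those of the only 1 of these 2 entries with counts. B3GNT4 had 155 to 234 counts and AC048338.1 had 3 to 17 counts per library, against 1940 to 3271 for DIABLO.

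**Figure D3:**
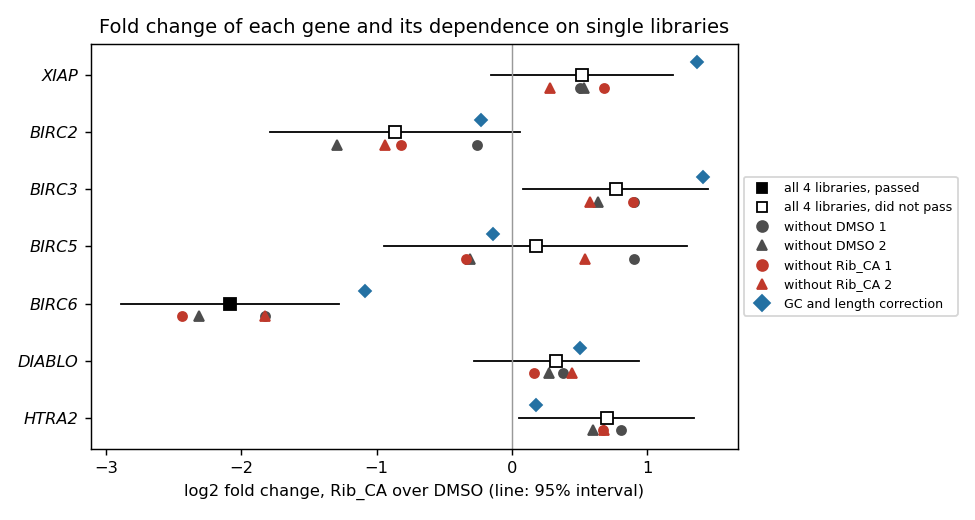
Log2 fold change of Rib_CA over DMSO for each gene with all 4 libraries (squares, filled where the adjusted p was under 0.05; lines are 95% intervals), with 1 library left out (grey and red symbols) and after the GC and length correction (blue diamonds). BIRC6 alone has a filled square, at -2.08, and moves to -1.08 after the correction, while BIRC5 has symbols on both sides of 0.

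To compare levels between genes, CPM were divided by the length of the longest transcript in kilobases. On this scale BIRC5 was the most abundant inhibitor in every library, at 22.9 ± 12.9 CPM per kb in DMSO and 25.9 ± 10.5 in Rib_CA (SD, n = 2). In DMSO it was followed by BIRC2 (9.33 ± 4.54), BIRC3 (5.05 ± 0.661), BIRC6 (5.01 ± 1.19) and XIAP (4.18 ± 0.0648), and the libraries of BIRC3 and BIRC6, and those of BIRC6 and XIAP, overlapped. Both BIRC2 libraries lay above both BIRC3 libraries, by less in the mean than the SD of BIRC2. In Rib_CA the order after BIRC5 was BIRC3 (8.61 ± 1.503), XIAP (6.01 ± 1.30), BIRC2 (5.13 ± 0.373) and BIRC6 (1.18 ± 0.333). BIRC6 was then the lowest in both libraries, those of XIAP and BIRC2 overlapped, and those of BIRC3 and XIAP did not. Of the antagonists, DIABLO lay at 19.7 ± 1.08 CPM per kb in DMSO and 24.8 ± 2.94 in Rib_CA, above HTRA2 at 8.95 ± 0.909 and 14.6 ± 0.223.

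The share of BIRC6 in the summed level of the 5 inhibitors was 9.75% and 12.7% in DMSO 1 and 2 and 2.71% and 2.29% in Rib_CA 1 and 2. The share of BIRC3 was 9.20% and 13.95% in DMSO and 14.5% and 23.4% in Rib_CA, and that of BIRC2 was 20.9% and 18.6% against 9.33% and 13.04%. BIRC5 held 53.3%, 41.9%, 63.8% and 44.6% in the same order of libraries. The sum itself was 46.4 ± 19.2 CPM per kb in DMSO and 46.8 ± 7.66 in Rib_CA, so it did not differ beyond its spread. BIRC5, whose replicates differed widely, was the largest part of this sum in every library. The sum of the 2 antagonists was 28.7 ± 1.99 in DMSO and 39.4 ± 2.72 in Rib_CA. Neither sum was tested for a difference between the groups, and neither DIABLO nor HTRA2 passed singly in edgeR's test. The ratio of DIABLO to XIAP per length was 4.96 and 4.49 in DMSO and 5.29 and 3.28 in Rib_CA, and these values overlapped. The levels rest on the chosen transcript length. With the mean length of each gene's transcripts the order in DMSO turned: BIRC5 (53.3 CPM per kb) was followed by BIRC6 (27.5), BIRC2 (21.4), XIAP (13.3) and BIRC3 (11.3). The order of the means in Rib_CA was as above, but the libraries of BIRC3 and XIAP then overlapped. BIRC3 lay at 16.9 and 21.7 CPM per kb in Rib_CA 1 and 2, and XIAP at 16.2 and 22.05. On that scale BIRC6 held 19.9% and 24.6% of the sum in DMSO and 5.99% and 4.97% in Rib_CA.

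**Figure D4:**
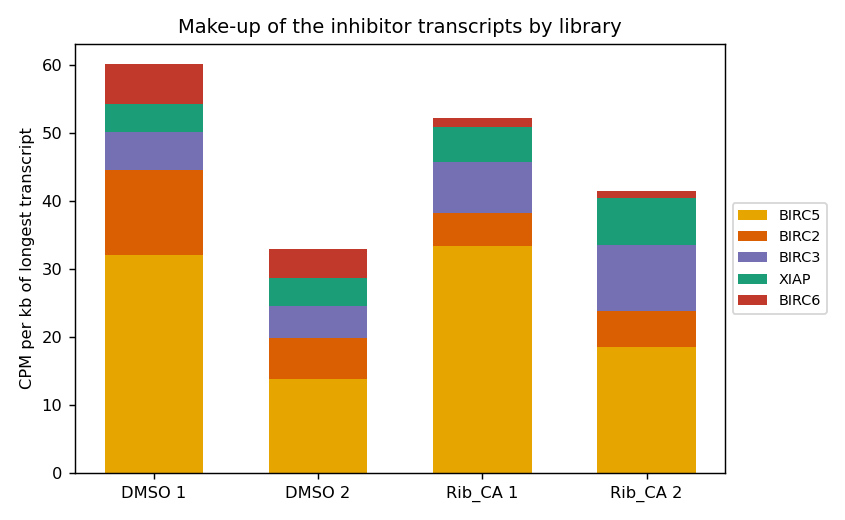
Stacked levels of the 5 inhibitors in each library, in CPM per kilobase of the longest transcript, from 0. BIRC5 is the largest block in every library, and the BIRC6 block shrinks from 5.86 and 4.17 in DMSO to 1.42 and 0.947 in Rib_CA.

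For each member, the 2 genes with the most similar pattern over the 4 libraries were sought among 9688 genes averaging 10 CPM or more, by the root mean square difference of log2 CPM centred on each gene's mean. BIRC6 was nearest to USP24 (0.020 log2 units), which encodes a deubiquitinase, and to UPF2 (0.026), of nonsense-mediated decay. Both were called lower themselves, at log2 fold changes of -2.12 and -2.11. Those calls follow from choosing the 2 genes for their likeness to BIRC6 and are no separate finding. BIRC3 was nearest to the kinase gene MAP3K10 (0.021) and to UBAC2 (0.034), BIRC2 to LGALS8 (0.048) and NSUN6 (0.057), and XIAP to CRLS1 (0.015) and DLK2 (0.019). HTRA2 was nearest to CDKN2AIPNL (0.010) and HPS1 (0.015), and DIABLO to IPO13 (0.009) and UBE2G2 (0.014). BIRC5 had the most distant neighbours of the 7, PFN1 (0.135) and TTC31 (0.137). With 4 libraries, such likeness is a description only.

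The genes around these 7 were read from lists written, like the choice of members, with earlier results of these data known. The counts below therefore describe the lists and are not independent tests of them. Their counts stand against 5.11% lower, 2.01% higher and a median log2 fold change of 0.03 over all genes tested. Counts of calls below were 0 for every list after either correction for GC content or for GC content and length. Of the other BIR-domain genes, NAIP was tested, at 3.40 to 5.77 CPM with overlapping groups (log2 fold change -0.24, adjusted p = 0.759). BIRC7 was not tested, with 2 to 5 counts per library, and BIRC8 had none. Among 10 other regulators of the family, 1 fell and none rose, with a median log2 fold change of -0.20 (all genes: 5.11% lower, 2.01% higher). Without Rib_CA 1, without Rib_CA 2 or in DESeq2, 3 genes of the list were called. The gene that fell was HSP90AA1, a chaperone to which survivin and other clients bind, from 3779 and 2588 CPM to 651 and 287 CPM (6.79-fold; adjusted p = 0.0301). Omitting single libraries gave decreases between 4.895-fold, without Rib_CA 2, and 11.4-fold, without Rib_CA 1. XAF1, an antagonist of XIAP, lay at 2.08 and 2.915 CPM in DMSO and at 0.587 and 1.16 CPM in Rib_CA without passing (adjusted p = 0.144). UBA6, the activating enzyme that loads BIRC6 with ubiquitin, lay at 106 and 68.8 CPM against 29.5 and 53.55 CPM (adjusted p = 0.130). HAX1, a partner of HTRA2, lay at 72.1 and 95.7 CPM against 145 and 123.5 CPM (adjusted p = 0.1605).

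None of the 8 caspase and apoptosome genes passed, and 1 had an unadjusted p under 0.05 (edgeR), against 7.13% and 28.4% of all genes tested. That gene was CASP2, where DMSO 2 alone was high: it lay at 17.85 CPM in DMSO 1, 109 CPM in DMSO 2, 15.95 CPM in Rib_CA 1 and 10.99 CPM in Rib_CA 2 (adjusted p = 0.122). It was the 1 gene of the list called without DMSO 1 and in DESeq2. CASP9, the initiator caspase that XIAP restrains, lay at 9.26 and 9.53 CPM in DMSO and 15.1 and 15.2 CPM in Rib_CA (adjusted p = 0.187).

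Of 19 genes of the TNF receptor complex in which the cIAP proteins work, 1 fell and none rose (median 0.17), against 5.11% lower and 2.01% higher over all genes. The number called was 0 without DMSO 1 or DMSO 2, 5 without Rib_CA 1, 4 without Rib_CA 2 and 7 in DESeq2. TAB2, an adaptor of the kinase TAK1, fell from 146 and 196 CPM to 67.1 and 52.2 CPM (2.86-fold; adjusted p = 0.0349). That call was lost on leaving out either DMSO library, and after the GC and length correction the decrease was 1.88-fold. The adaptor gene TRAF1, whose product binds the cIAP proteins through TRAF2, lay at 20.6 and 9.14 CPM in DMSO and at 168 and 46.5 CPM in Rib_CA. TRAF1 came close to the threshold without passing (adjusted p = 0.0551), and its treated libraries differed widely from each other. TRAF2 and TRAF3, the partners through which cIAP proteins reach the NF-kB-inducing kinase, had log2 fold changes of 0.61 and 0.07 (adjusted p = 0.230 and 0.936).

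Of 13 tested genes of NF-kB and its NIK branch, 3 rose and 1 fell (median 0.63), against 2.01% higher and 5.11% lower over all genes. The number called was 8 without Rib_CA 2 and 4 in DESeq2. RELB rose from 8.31 and 11.9 CPM to 65.8 and 46.2 CPM, 5.54-fold. NFKB2, its partner subunit in the branch that cIAP loss releases, rose from 63.4 and 69.35 CPM to 240.2 and 158.5 CPM (3.002-fold; adjusted p = 0.0342). NFKBIE, an inhibitor of NF-kB, rose 3.83-fold. After the GC and length correction the rises were 3.62-fold for RELB, 2.196-fold for NFKB2 and 2.655-fold for NFKBIE. None of them passed then (adjusted p = 0.0803 for each in edgeR's test). The subunit gene REL fell from 16.3 and 17.9 CPM to 6.53 and 4.30 CPM (3.16-fold; adjusted p = 0.0432), and 1.52-fold after the GC and length correction. MAP3K14, which encodes the NF-kB-inducing kinase itself, had overlapping groups (log2 fold change -0.16, adjusted p = 0.787). Without DMSO 1 none of these 4 called genes passed, and without DMSO 2 RELB alone did. TNF was not tested, with counts in Rib_CA 1 only.

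Of 12 genes of the passenger complex that survivin belongs to and of its regulators, 3 fell and none rose (median -0.64), against 5.11% lower and 2.01% higher over all genes. The number called was 6 without either Rib_CA library and 4 in DESeq2. KIF20A, a kinesin that carries the complex to the spindle midzone, fell from 190 and 182 CPM to 50.5 and 51.6 CPM (3.64-fold; adjusted p = 0.0285). BUB1 and SGO1, which prepare the centromere for the complex, were 3.36-fold and 3.04-fold lower. The subunit genes AURKB and CDCA8 had overlapping groups, as BIRC5 did, with log2 fold changes of -0.19 and -0.24. INCENP, the scaffold, lay at 161 and 180 CPM against 92.9 and 60.3 CPM without passing (adjusted p = 0.0674). The 3 calls were lost without DMSO 1, and that of SGO1 also without DMSO 2.

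Of 11 genes that govern the exit of DIABLO and HTRA2 from mitochondria, 1 rose and 1 fell (median 0.25), against 2.01% higher and 5.11% lower over all genes. The number called was 0 without DMSO 1, 1 without DMSO 2, 4 without either Rib_CA library and 5 in DESeq2. PMAIP1, which encodes the killer protein NOXA, lay at 54.5 and 60.6 CPM in DMSO and at 139 and 342 CPM in Rib_CA, a 4.18-fold rise (adjusted p = 0.0443) that ranged from 2.42-fold without Rib_CA 2 to 5.75-fold without Rib_CA 1 and was not called without either DMSO library. OPA1, which keeps the cristae closed, fell from 186 and 125 CPM to 44.2 and 30.7 CPM (4.16-fold; adjusted p = 0.0287). Its decrease was 2.36-fold after the GC and length correction, and its call was lost without DMSO 1. BAK1, a pore former of the outer membrane, lay at 31.1 and 30.3 CPM against 59.8 and 83.0 CPM without passing (adjusted p = 0.0532).

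**Figure D5:**
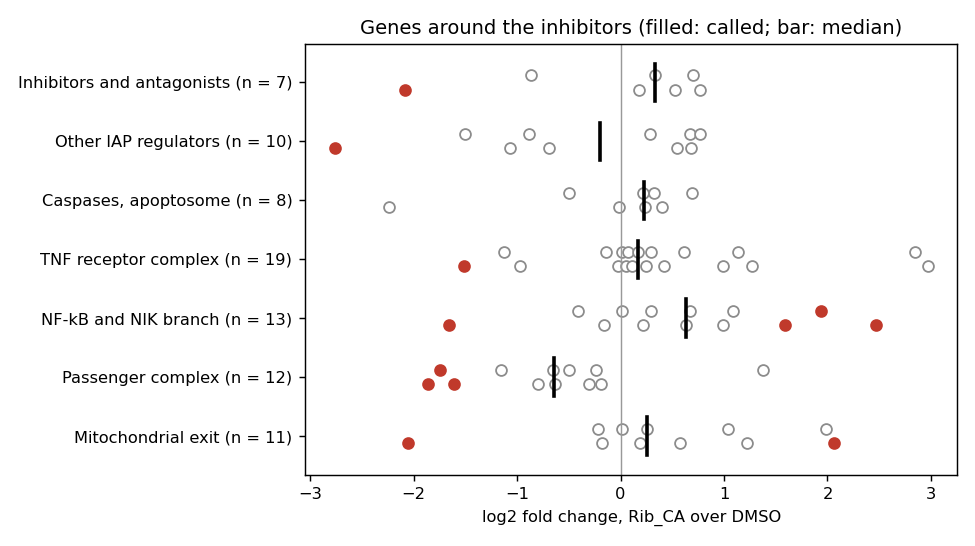
Log2 fold change of each tested gene in the 7-gene group and in 6 lists around it, with filled red points for an adjusted p under 0.05 and a black bar at each median. Called genes lie on both sides of 0 in the NF-kB and mitochondrial exit lists and below 0 in the others that have any.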

How the data were processed

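Messenger RNA libraries were sequenced and the authors deposited raw, unnormalised counts per gene for 4 libraries. The sources used here do not name the aligner, the counter, its use of strand or its handling of multiply matching reads. The submitters' processing notes name GRCm38 and mm10, mouse builds, although every row is a human Ensembl ID. Of values from 1 to 10, 67.7% to 70.7% were even. Counting both mates of a pair would give even values, but whether this was done was not tested. Counts may therefore not be independent molecules. Symbols came from a table of gene names (20148 of 20263 IDs). Coordinates, transcript lengths and GC contents came from GENCODE release 29 (GRCh38, 20224 IDs).

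The test used edgeR 4.0.16 (R 4.3.3): filterByExpr (minimum count 10, minimum total 15), TMM factors of 0.873 to 1.14, and a robust quasi-likelihood test of Rib_CA against DMSO over 13667 genes, with Benjamini-Hochberg adjustment at 0.05. Standard errors are the log2 fold change over the root of F, and 95% intervals use the moderated degrees of freedom. This fit, not the corrected ones, was tested on simulated counts. In that simulation every gene had the same dispersion. It therefore does not show how the fit behaves where the spread varies between genes. CPM are scaled by TMM. Levels between genes are CPM per kilobase, in place of the planned transcripts-per-million-like value, which the mitochondrial share would scale. The labels do not state the origin of the replicates. If they were not separate cultures, p-values reflect a spread that may be technical. Alternatives included DESeq2 1.42.0, limma-voom (limma 3.58.1) and offsets from each library's smooth over length and GC content, fitted in mgcv 1.9.3 with 6 basis functions. These offsets also remove real changes that run along them, and they can enlarge others. The GC and length correction shrank the fold changes of BIRC2, BIRC6 and HTRA2 and enlarged those of XIAP, BIRC3 and DIABLO, while BIRC5 changed sign. The adjusted p of 0.0803 that XIAP and BIRC3 had in edgeR after it was shared by other named genes, among them NFKB2 and RELB.

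The members and lists were chosen with earlier results of these data known. Named genes are the 7 members, called genes of each list or else those with the smallest p, and the 2 nearest patterns per member. Other genes named in the text were singled out for their role after their values were seen. Some genes of the caspase list are not reported singly here.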

Additional observations from a re-analysis of the deposited data

How the results depend on the processing

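The call of BIRC6 held under 13 of the 17 other settings. It was lost without DMSO 1 (-1.82), after the GC correction (-1.64), after the GC and length correction (-1.08) and the replicate block with that correction (-1.10). With 1 library left out its log2 fold change ranged from -2.44 to -1.82. BIRC3 ranged from 0.58 to 0.90 with 1 library left out and passed without Rib_CA 1 alone (0.90; adjusted p = 0.0442). BIRC5 took a negative sign after the GC correction (-0.070), the GC and length correction (-0.14) and that correction with the block (-0.044), and ranged from -0.34 to 0.90 with 1 library left out.

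Over all genes, 275 were higher and 699 lower. With 1 library left out the counts ranged from 36 to 1234 higher and from 137 to 1634 lower. Total counts alone gave 260 and 328, no filter 448 and 876, the filter of 5 CPM 418 and 808, and DESeq2 1043 and 1514. The GC correction, the GC and length correction and the latter with the block each left 0 calls in edgeR, where an unadjusted p under 0.05 was reached by 3652, 3399 and 2646 genes. Scaling by total counts moved the median log2 fold change from 0.03 to 0.23. The replicate numbers do not pair the libraries by any label, and the deviations of same-numbered libraries correlated at -0.19. The replicate block gave 260 higher and 687 lower, and a crossed pairing, chosen after seeing the data, 724 and 1267. The causes of these differences were not tested. Per length, BIRC6 and XIAP lay at 27.5 and 13.3 CPM per kb in DMSO with mean transcript lengths.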
